A study of Mus musculus with 18 samples.

Results

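The TGF-beta and BMP pathway genes described here were 50 genes chosen by name from what is known of the pathway: 12 ligands, 13 receptors and co-receptors, 8 Smads, 4 latency proteins, 5 secreted antagonists, 5 repressors and ubiquitin ligases, and 3 Id genes. The choice went by symbol and not by a threshold on levels, but it was made with earlier results of these data known, so the shares below describe the list and support nothing about it. All 50 were found among the 47643 genes of the deposited count table, and 45 of them were among the 14309 genes abundant enough to be tested. RNA was measured in MPC3, a mouse prostate cancer cell line, in 18 libraries: 6 control libraries, named plko in the labels, 6 with the short hairpin RNA shRNF185.1 and 6 with shRNF185.3. Each hairpin targets Rnf185, the gene of a ubiquitin ligase of internal membranes, and a short hairpin RNA lowers the messenger RNA it matches. Each of the 3 batches held 2 libraries of every group. The labels give no further allele, agent or treatment time, do not say what the control construct carries, and do not say whether the libraries of a group came from separate cultures. The p-values therefore measure the spread between these samples, in counts named as already adjusted for batch. That spread may be technical.

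TGF-beta is secreted in a latent complex, tethered to the matrix by latent TGF-beta binding proteins (LTBPs), and has to be released before it can bind its receptors. Type II receptors then activate type I receptors, which phosphorylate Smad2 and Smad3 for TGF-beta and activin, or Smad1, Smad5 and Smad9 for BMPs. Smad4 is the partner shared by both branches, while Smad6, Smad7, the Ski proteins and the Smurf ligases restrain them. In the prostate, TGF-beta is known as a signal between stroma and epithelium that limits epithelial growth and favours matrix production.

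Each library held 22027395 to 43379662 counts, so that 3 counts, the limit that a count of 0 allows, corresponded to 0.0701 to 0.133 CPM (counts scaled to a common effective library size). These limits cover counting error only. Rnf185 was at 33.6 to 38.4 CPM in control libraries and at 5.19 to 6.80 CPM in the hairpin libraries. Markers of the luminal epithelium summed to 1740 to 2570 CPM in control, against 1060 to 1810 and 1210 to 1420 CPM in the shRNF185.1 and shRNF185.3 libraries. Of 6 such markers tested, 1 rose and 3 fell with shRNF185.1, and 4 fell with shRNF185.3, whereas Epcam was below 1 CPM in every group. Fibroblast markers summed to 3030 to 3990 CPM in control, against 3520 to 3900 and 3450 to 3940 CPM in those hairpin libraries, and nearly all of that sum was Vim (3200 CPM in control), which was not called. Of the other fibroblast markers, Pdgfrb rose with both hairpins (log2 fold change 0.36 and 0.58), Pdgfra rose with shRNF185.3 (0.46), Dcn fell by 2.11 with shRNF185.1, and Lum and Thy1 were below 1 CPM. The 4 smooth muscle markers summed to 0.841 to 4.64 CPM in control, 3.81 to 8.67 CPM in shRNF185.1 and 4.82 to 15.6 CPM in shRNF185.3 libraries. Cnn1 rose with both hairpins (2.01 and 2.83) and Actg2 with shRNF185.3 (1.72), while Des and Myh11 were below 1 CPM. All 5 endothelial and 5 of 6 leukocyte markers were below 1 CPM in every group, and Cd3e was at 0. The part of these marker levels in the results was not tested, and in bulk RNA fewer cells of a type and less RNA per cell cannot be told apart.

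A gene was called changed at a Benjamini-Hochberg adjusted p under 0.05 over all 14309 genes, in edgeR's quasi-likelihood test. With shRNF185.1, 18 of the 45 tested members were called (40.0%, against 28.9% of all genes), 11 higher and 7 lower, where 14.6% of all genes were called higher and 14.3% lower. With shRNF185.3, 17 were called (37.8%, against 27.3% of all genes), 12 higher and 5 lower, where 14.2% of all genes were called higher and 13.1% lower. Scaling by library size alone moved these splits to 13 higher and 5 lower, and to 13 higher and 4 lower. Over all genes it moved the share of calls that were higher from 50.6% to 56.8% and from 51.8% to 57.3%. An offset for GC content and gene length moved that share the other way, to 46.3% and 43.6%. With this offset the members split into 10 higher and 7 lower, and into 13 higher and 6 lower. Both comparisons use the same control libraries, so their results are given side by side and not as independent evidence.

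In all, 10 of the 45 tested members (22.2%, against 16.1% of all genes) were called in the same direction with both hairpins. The ligands Tgfb2, Tgfb3 and Gdf11, the co-receptor Tgfbr3, the inhibitory Smad6, the latency proteins Ltbp1 and Ltbp2 and the secreted Fstl1 rose. The ligand gene Inhba and the receptor-regulated Smad2 fell. These 8 higher members are 17.8% of those tested, where 8.99% of all genes were called higher with both hairpins, and the 2 lower are 4.44%, against 7.13%. Scaling by library size alone gave 11 higher and 1 lower, and the GC and length offset gave 8 higher and 3 lower. All 10 had the same sign against control in each of the 3 batches with both hairpins. For Smad2 the batch 2 differences were only -0.01 and -0.04. Such agreement held for 88.9% of the 2306 genes called in the same direction with both, since these calls rest on the same libraries. Another 7 members were called only with shRNF185.1, 6 only with shRNF185.3, 1 (Ski) in opposite directions, and 21 with neither, so that 24 (53.3%) were called with at least 1 hairpin, against 39.6% of all genes. Over the tested members the median log2 fold changes with shRNF185.1 and shRNF185.3 were 0.07 and 0.06, and over all genes it was -0.02 with each hairpin.

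**Figure D1:**
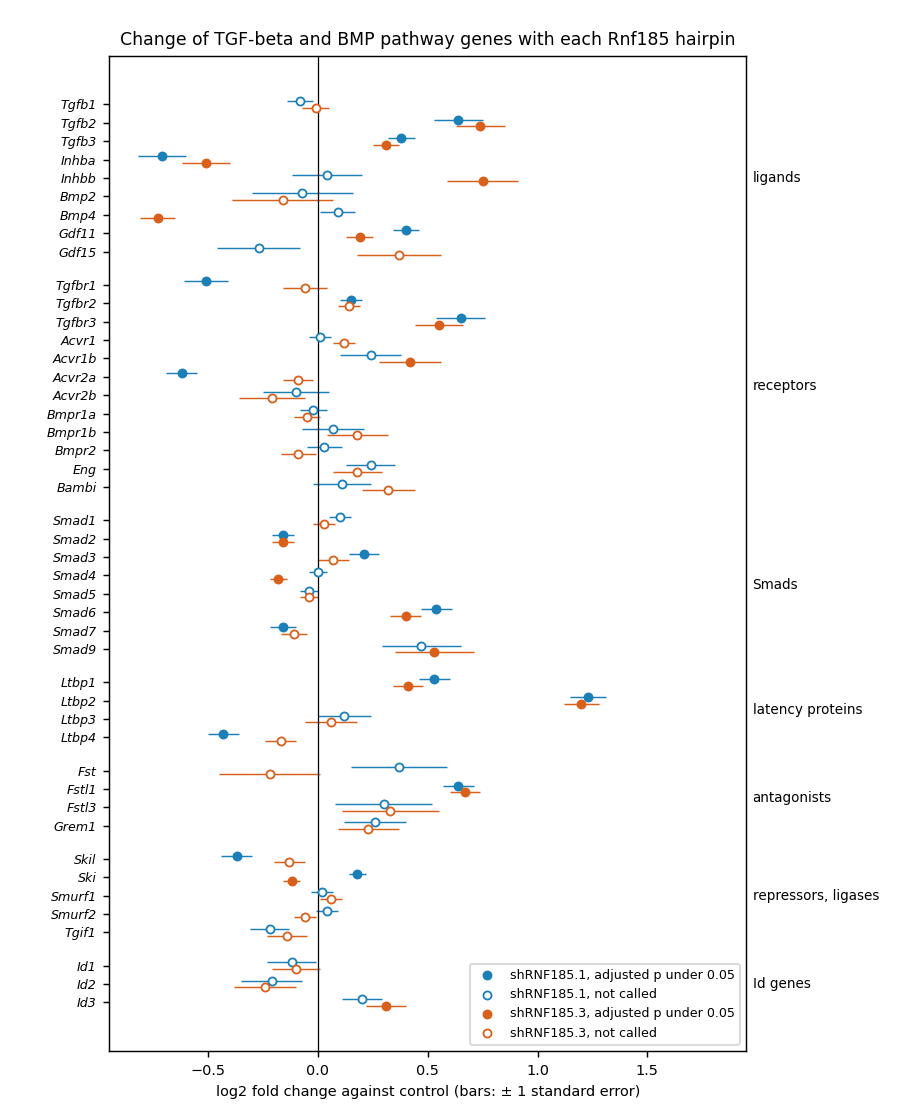
Log2 fold change against control (x axis) of the 45 tested members (y axis, grouped by role) for shRNF185.1 (blue) and shRNF185.3 (orange), with bars of 1 standard error and filled points where the adjusted p was under 0.05. Ltbp2 lies farthest to the right with both hairpins, at 1.23 and 1.20, while Inhba lies to the left with both and Bmp4 only with shRNF185.3.

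Promoter windows of 250 bases before the RefSeq start (assembly GRCm38.p6, same strand as the gene, 5′ to 3′) are shown for the latency genes Ltbp2 and Ltbp1 and the ligand gene Tgfb2, which rose with both hairpins and hold a match, for Gdf11 and Smad6, which rose with both and hold none, and for Inhba, the ligand gene that fell with both hairpins. RefSeq windows matched 36 of the 50 members. Capitals mark matches, on either strand, to CAGAC (a SMAD box with a leading C) or CAGGTG (an E-box); GGCGCC (a GC-rich SMAD element) and TGANTCA (an AP-1 site) were also searched, and no matches overlapped in these windows. The Ltbp2 window, chr12:84876533-84876741 on the minus strand, is shortened to 209 bases to leave out the gene's own first exon, and it lies over exon sequence of the antisense gene D030025P21Rik. The Ltbp1 window is chr17:75005279-75005528 on the plus strand. The Tgfb2 window is chr1:186705990-186706239 on the minus strand and overlaps exon sequence of the antisense gene Gm29491. The Gdf11 window is chr10:128891719-128891968 and the Smad6 window chr9:64022060-64022309, both on the minus strand. The Inhba window is chr13:16011601-16011850 on the plus strand.
Ltbp2: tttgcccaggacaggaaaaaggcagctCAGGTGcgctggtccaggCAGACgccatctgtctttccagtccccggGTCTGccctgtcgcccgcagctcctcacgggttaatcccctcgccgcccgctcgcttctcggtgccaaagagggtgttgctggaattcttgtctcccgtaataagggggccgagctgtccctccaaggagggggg
Ltbp1: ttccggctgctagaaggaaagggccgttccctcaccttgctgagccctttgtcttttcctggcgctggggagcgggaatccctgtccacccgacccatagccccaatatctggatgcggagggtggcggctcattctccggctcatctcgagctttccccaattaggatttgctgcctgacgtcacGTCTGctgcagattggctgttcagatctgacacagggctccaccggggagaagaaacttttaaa
Tgfb2: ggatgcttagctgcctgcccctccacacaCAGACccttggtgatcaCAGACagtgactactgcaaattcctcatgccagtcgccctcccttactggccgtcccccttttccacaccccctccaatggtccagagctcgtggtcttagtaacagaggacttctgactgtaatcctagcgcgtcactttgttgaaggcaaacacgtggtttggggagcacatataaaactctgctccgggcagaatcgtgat
Gdf11: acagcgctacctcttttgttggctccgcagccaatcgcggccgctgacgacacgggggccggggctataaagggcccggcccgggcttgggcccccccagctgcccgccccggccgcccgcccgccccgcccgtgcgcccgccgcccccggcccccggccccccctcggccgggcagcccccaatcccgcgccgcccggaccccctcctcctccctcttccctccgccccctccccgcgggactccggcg
Smad6: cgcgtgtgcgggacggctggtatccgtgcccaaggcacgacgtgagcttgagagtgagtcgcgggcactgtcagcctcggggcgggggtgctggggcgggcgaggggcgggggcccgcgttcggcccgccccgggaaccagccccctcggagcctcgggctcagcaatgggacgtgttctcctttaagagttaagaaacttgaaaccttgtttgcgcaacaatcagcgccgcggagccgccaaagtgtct
Inhba: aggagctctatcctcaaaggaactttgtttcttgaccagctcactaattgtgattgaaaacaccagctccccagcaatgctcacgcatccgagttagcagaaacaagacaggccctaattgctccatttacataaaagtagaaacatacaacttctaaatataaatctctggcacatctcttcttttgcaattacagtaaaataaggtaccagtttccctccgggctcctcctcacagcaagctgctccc
CAGAC was present in 42.2% of all 32851 RefSeq windows, in 17 of the 36 matched members (47.2%), and in 3 of the 6 matched members that rose with both hairpins. CAGGTG was present in 17.2% of all windows, in 7 of the 36 members (19.4%) and, of those 6, in Ltbp2. GGCGCC was in 9.6% of all windows and 8 of the 36 members (22.2%) but in 0 of those 6, and TGANTCA in 6.7% of all windows and in 0 of the 36. None of the 4 motifs was found in the Inhba, Gdf11 or Smad6 windows, nor in that of Fstl1, which is not printed. A match is a description of the letters and not of binding.

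Among the ligands, TGF-beta 2 and TGF-beta 3 messages rose with both hairpins and the activin subunit message Inhba fell with both, while Tgfb1 was not called with either. Of 12 ligand genes, 9 were tested: 3 rose and 1 fell with shRNF185.1, and 4 rose and 2 fell with shRNF185.3. These are 44.4% and 66.7% of the tested ligands, against 28.9% and 27.3% of all genes.

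Tgfb2 (chromosome 1, 186622792 to 186705989, minus strand) had 8.76, 11.3 and 12.7 CPM as its lowest, median and highest control values. The corresponding values were 13.1, 17.3 and 19.7 CPM with shRNF185.1, and 15.5, 18.7 and 20.9 CPM in the shRNF185.3 libraries. Every hairpin library lay above every control library. Tgfb2 rose by 0.64 on the log2 scale in the first hairpin group (adjusted p = 0.000165) and by 0.74 in the second (adjusted p = 4.04e-05), each with an SE of 0.11. For Tgfb3 (chromosome 12, 86056745 to 86079041, minus strand), control libraries spanned 42.3 to 50.2 CPM with a median of 47.2. With shRNF185.1 they spanned 58.1 to 63.5 CPM with a median of 60.6, and with shRNF185.3 51.9 to 64.5 CPM with a median of 58.9. Again the hairpin libraries all lay above the controls. Its rise was 0.38 and 0.31 on the log2 scale (SE 0.06 each, adjusted p = 5.50e-05 and 0.000341). Tgfb1 was the most abundant of the TGF-beta ligands per kilobase of exon, at 26.2 CPM per kb in control. Its group means were 132 ± 10.9, 126 ± 6.61 and 131 ± 7.91 CPM in control, shRNF185.1 and shRNF185.3 (SD, n = 6 per group), and its adjusted p was 0.328 and 0.914.

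Inhba (chromosome 13, 16011851 to 16031621, plus strand) encodes the beta A subunit of activin A. Its lowest, median and highest values were 35.0, 47.3 and 52.2 CPM in control, 23.2, 27.0 and 35.6 CPM with shRNF185.1, and 26.1, 31.9 and 35.8 CPM with shRNF185.3. The lowest control library, replicate 5, lay within the range of each hairpin, and the other controls lay above both. On the log2 scale Inhba fell by 0.71 and by 0.51 with these hairpins (SE 0.11 each, adjusted p = 5.26e-05 and 0.00116). The beta B subunit gene, Inhbb (chromosome 1, 119415465 to 119422248, minus strand), was scarce, at 0.362 CPM per kb of exon in control. In order of lowest, median and highest it had 1.03, 1.47 and 2.02 CPM in control, 1.31, 1.53 and 2.09 CPM with shRNF185.1, and 2.09, 2.60 and 2.91 CPM with shRNF185.3. All shRNF185.3 libraries were above the controls, whereas shRNF185.1 overlapped them. Inhbb rose with shRNF185.3 (log2 fold change 0.75, SE 0.16, adjusted p = 0.00148) and had a value of 0.04 in shRNF185.1 (adjusted p = 0.876). The difference between the hairpins was 0.71 (SE 0.16, adjusted p = 0.00448). Without batch 3 the adjusted p was 0.0908 against control and 0.0786 between the hairpins, and without batch 2 the latter was 0.0664.

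Bmp4 (chromosome 14, 46383520 to 46390669, minus strand), a BMP ligand of mesenchyme and many epithelia, had the largest difference between the hairpins among the 9 tested ligands. Lowest, median and highest values were 12.4, 13.8 and 16.4 CPM in control, 13.3, 15.4 and 16.1 CPM with shRNF185.1, and 7.32, 8.46 and 9.85 CPM with shRNF185.3. Every shRNF185.3 library lay below every library of the other groups. Bmp4 fell by 0.73 with shRNF185.3 against control (log2 scale, SE 0.08, adjusted p = 1.75e-06) and by 0.82 against shRNF185.1 (SE 0.08, adjusted p = 8.50e-07). The shRNF185.1 libraries differed from control by 0.09 (adjusted p = 0.399). Bmp2, a further BMP ligand, had group means of 42.4 ± 12.6, 40.5 ± 11.7 and 38.0 ± 11.7 CPM (SD, n = 6 each) in control, shRNF185.1 and shRNF185.3, with adjusted p of 0.857 and 0.659.

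Gdf11 (chromosome 10, 128882295 to 128891718, minus strand), a ligand close to myostatin, had 27.0, 28.9 and 35.3 CPM as lowest, median and highest in control, 35.1, 39.4 and 41.3 CPM with shRNF185.1, and 32.6, 33.5 and 34.8 CPM with shRNF185.3. Control replicate 3, at 35.3 CPM, lay within the shRNF185.1 range and above every shRNF185.3 library, and all shRNF185.3 libraries lay below all shRNF185.1 libraries. It rose by 0.40 and 0.19 on the log2 scale (SE 0.06 each, adjusted p = 4.07e-05 and 0.0187), and was lower with shRNF185.3 than with shRNF185.1 (-0.21, SE 0.06, adjusted p = 0.0202). The shRNF185.3 call was lost without batch 1 (adjusted p = 0.154) and without batch 3 (0.187), and so was the difference between the hairpins (0.305 and 0.160). Gdf15, a stress-induced ligand, was scarce: 0.522, 0.707 and 1.16 CPM in control, 0.499, 0.628 and 0.837 CPM with shRNF185.1, and 0.746, 1.00 and 1.29 CPM with shRNF185.3, as lowest, median and highest. The 3 ranges of Gdf15 overlapped. It was called only between the hairpins, higher with shRNF185.3 (log2 fold change 0.64, SE 0.19, adjusted p = 0.0299), and lost that call in 6 of 13 alternatives, among them without batch 1 (0.175) and without batch 3 (0.313). Bmp7 and Gdf6 had a count of 0 in all 18 libraries, and Bmp6 had 0 to 12 counts per library.

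**Figure D2:**
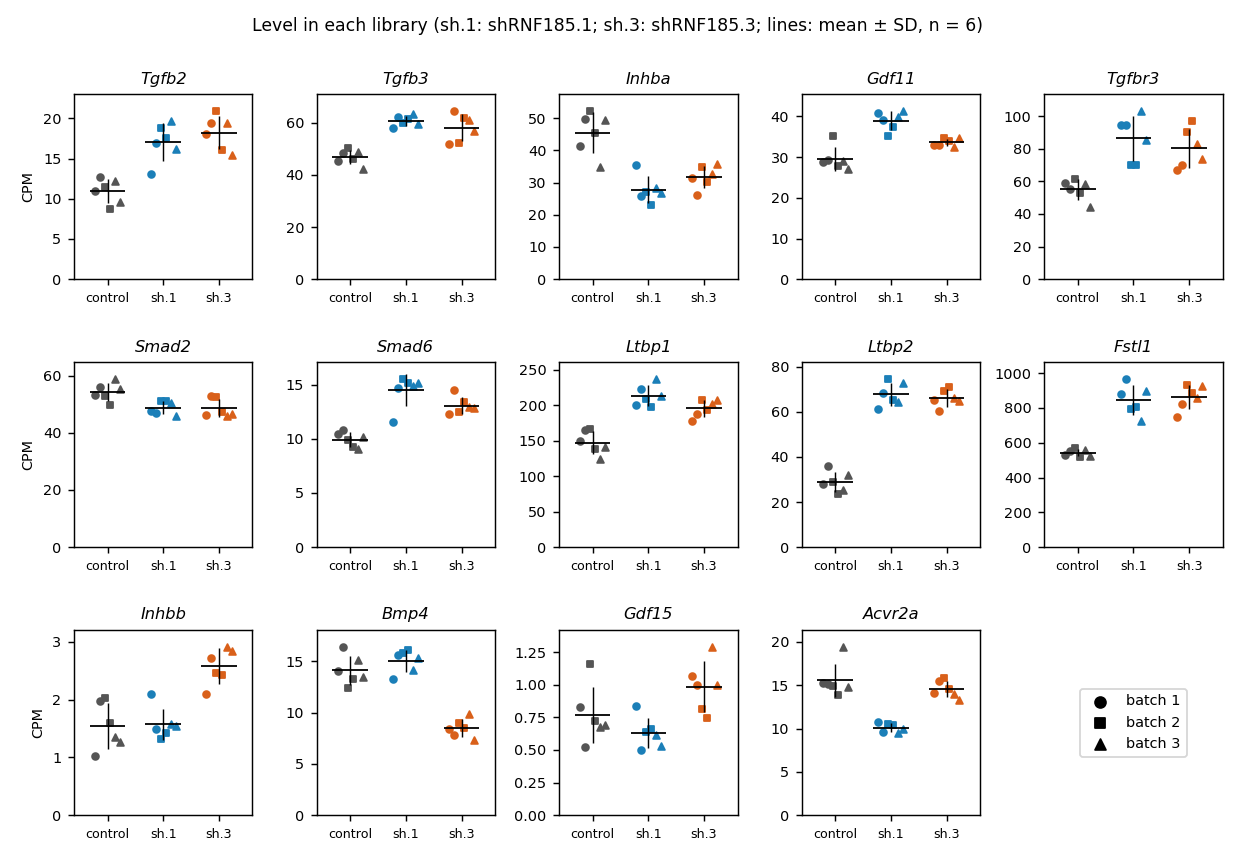
CPM (y axis, linear from 0, a scale of its own in each panel) of the 14 members described by library, with 1 point per library (shapes mark the 3 batches), the mean and its SD for control, shRNF185.1 and shRNF185.3 (x axis). The hairpin libraries of Tgfb2, Tgfb3, Tgfbr3, Smad6, Ltbp1, Ltbp2 and Fstl1 sit above all control libraries, and the shRNF185.3 libraries of Bmp4 sit below all others.

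Among the receptors, the co-receptor Tgfbr3 rose with both hairpins, and the type I receptor Tgfbr1 and the activin type II receptor Acvr2a fell with shRNF185.1. These last 2 were the only ones of the tested receptors called between the hairpins (16.7%, against 14.7% of all genes). Of 13 receptor genes, 12 were tested: 2 rose and 2 fell with shRNF185.1, and 2 rose and 0 fell with shRNF185.3. The shares called against control were 33.3% and 16.7%, where those of all genes were 28.9% and 27.3%.

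Tgfbr3 (chromosome 5, 107106570 to 107289629, minus strand) encodes betaglycan, a co-receptor that presents TGF-beta 2 to the type II receptor. The control libraries had a lowest, median and highest value of 44.0, 56.8 and 61.5 CPM, the shRNF185.1 libraries of 70.1, 89.8 and 103 CPM, and the shRNF185.3 libraries of 66.9, 78.2 and 97.2 CPM. No hairpin library overlapped the controls. The rises were 0.65 and 0.55 on the log2 scale (SE 0.11 each, adjusted p = 0.000225 and 0.00114). Within batches 1, 2 and 3 they were 0.74, 0.30 and 0.88 for the first hairpin and 0.27, 0.72 and 0.63 for the second. Without batch 2, Tgfbr3 was lower with shRNF185.3 than with shRNF185.1 (-0.36, adjusted p = 0.0294), a difference not called over all batches (-0.10, adjusted p = 0.666).

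Acvr2a (chromosome 2, 48814109 to 48903269, plus strand) is a type II receptor for activins. From lowest through median to highest it measured 13.9, 15.0 and 19.4 CPM in control, 9.46, 10.1 and 10.8 CPM with shRNF185.1, and 13.3, 14.3 and 15.8 CPM with shRNF185.3. The shRNF185.1 libraries lay below all others, and the other groups overlapped. Acvr2a fell by 0.62 with shRNF185.1 (log2 scale, SE 0.07, adjusted p = 4.52e-06), had a log2 fold change of -0.09 with shRNF185.3 (adjusted p = 0.381), and differed between the hairpins by 0.53, with shRNF185.3 the higher (SE 0.07, adjusted p = 6.32e-05). The antisense gene Orc4, at 39.3 CPM in control, overlaps 7.84% of its exonic bases. Orc4 was not called, with log2 fold changes of -0.21 for shRNF185.1 (adjusted p = 0.0501) and -0.12 for shRNF185.3 (adjusted p = 0.256). As the strand setting of the counting is not given, reads of the overlapping stretch cannot be told apart. Tgfbr1, the type I receptor for TGF-beta, had 56.6, 72.6 and 92.9 CPM in control, 46.5, 48.5 and 57.5 CPM with shRNF185.1, and 61.0, 70.4 and 73.9 CPM with shRNF185.3. The shRNF185.1 libraries lay below the shRNF185.3 libraries and overlapped the lowest control. Tgfbr1 fell by 0.51 with shRNF185.1 (SE 0.10, adjusted p = 0.000558), and the difference between the hairpins was 0.45 (SE 0.10, adjusted p = 0.00331), which was lost without batch 1 (0.0862) and without batch 2 (0.0989).

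Tgfbr2, the TGF-beta type II receptor, had a log2 fold change of 0.15 with shRNF185.1 (adjusted p = 0.0343) that was lost in 7 of 14 alternatives, including the fit with the replicate number as a block (0.0688). With shRNF185.3 it was 0.14 (adjusted p = 0.0579). Acvr1b, a type I receptor for activin, rose with shRNF185.3 (0.42, adjusted p = 0.0305), a call lost in 4 of 14 alternatives, among them without batch 1 (0.0684) and without batch 3 (0.377). The BMP receptors Bmpr1a, Bmpr1b and Bmpr2, the receptors Acvr1 and Acvr2b, the co-receptor endoglin (Eng) and the decoy receptor Bambi were called with neither hairpin. Their log2 differences from control ran from -0.10 (Acvr2b) to 0.24 (Eng) for shRNF185.1, and from -0.21 (Acvr2b) to 0.32 (Bambi) for shRNF185.3. Acvrl1, the receptor of endothelial cells, had 0 to 2 counts per library and was not tested.

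Among the 8 Smads, all tested, the inhibitory Smad6 rose with both hairpins without overlap, and the receptor-regulated Smad2 fell slightly with both hairpins. With shRNF185.1, 2 rose and 2 fell, and with shRNF185.3 likewise 2 rose and 2 fell. Thus 4 of the 8 were called with each hairpin, against 28.9% and 27.3% of all genes. Smad6 (chromosome 9, 63953076 to 64022059, minus strand) mainly restrains BMP receptors. It measured 9.09 to 10.8 CPM in control (mean 9.93 ± 0.684, SD, n = 6), and its lowest, median and highest values were 11.5, 15.0 and 15.5 CPM with shRNF185.1, and 12.3, 12.8 and 14.5 CPM with shRNF185.3. Every hairpin library lay above the controls. Its rise on the log2 scale was 0.54 and 0.40 (SE 0.07 each, adjusted p = 1.58e-05 and 0.000389). Smad7, the inhibitory Smad of TGF-beta receptors, had -0.16 with shRNF185.1 (adjusted p = 0.0497), lost in 10 of 14 alternatives including the block (0.0745), and -0.11 with shRNF185.3 (adjusted p = 0.177).

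Smad2, which carries the TGF-beta and activin signal, had 49.8, 54.3 and 58.8 CPM in control, 46.0, 49.0 and 51.1 CPM with shRNF185.1, and 46.0, 47.1 and 53.0 CPM with shRNF185.3, as lowest, median and highest. The ranges overlapped. Smad2 fell by 0.16 on the log2 scale with each hairpin (SE 0.05, adjusted p = 0.0248 and 0.0252). The shRNF185.1 call was lost in 5 of 14 alternatives and the shRNF185.3 call in 3. Both were lost without batch 1 (0.236 and 0.114) and without batch 3 (0.233 and 0.370). Both were also lost with the 2 libraries of a group and batch summed (0.122 and 0.126). With scaling by library size alone, Smad2 had an adjusted p of 0.0537 for shRNF185.1. Its partner in that branch, Smad3, had 0.21 with shRNF185.1 (adjusted p = 0.0343, and 0.0525 with the block), lost in 6 of 14 alternatives, and 0.07 with shRNF185.3 (adjusted p = 0.478).

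Smad4, the common partner, had 72.8, 75.4 and 82.9 CPM in control, 73.8, 75.7 and 79.0 CPM with shRNF185.1, and 66.4, 67.0 and 68.6 CPM with shRNF185.3. The shRNF185.3 libraries were below all others by a small margin. It fell by 0.18 with shRNF185.3 (log2 scale, SE 0.04, adjusted p = 0.000904), with -0.00 for shRNF185.1 (adjusted p = 0.954) and a difference between the hairpins of -0.18 (adjusted p = 0.00207) that was lost without batch 1 (0.100) and without batch 2 (0.0509). Smad9 rose with shRNF185.3 (0.53, adjusted p = 0.0364), and that call was lost in 6 of 14 alternatives, including the block (0.0823), the fit without batch 1 (0.358) and the fit without batch 2 (0.155). The other BMP Smads, Smad1 and Smad5, were called with neither hairpin, with log2 fold changes of 0.10 and -0.04 for shRNF185.1 and 0.03 and -0.04 for shRNF185.3.

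The latency proteins held the member with the largest change, Ltbp2, and all 4 were tested. Ltbp1 and Ltbp2 rose with both hairpins, Ltbp4 fell with shRNF185.1, and Ltbp3 was not called. Thus 3 of the 4 were called with shRNF185.1 and 2 with shRNF185.3, against 28.9% and 27.3% of all genes. Higher calls with both hairpins made up 8.99% of all genes. Ltbp2 (chromosome 12, 84783212 to 84876532, minus strand) encodes an LTBP of elastic fibres that, unlike the others, is not known to bind latent TGF-beta. As lowest, median and highest it had 23.4, 28.3 and 35.8 CPM in control, 61.2, 66.9 and 74.5 CPM with shRNF185.1, and 60.2, 65.6 and 71.2 CPM with shRNF185.3. No hairpin library overlapped the controls, and the hairpin groups overlapped each other. The rise was 1.23 on the log2 scale for shRNF185.1, which is 2.35-fold, and 1.20 for shRNF185.3 (SE 0.08 each, adjusted p = 6.14e-09 and 1.03e-08). Within batches 1, 2 and 3 the log2 difference was 1.03, 1.42 and 1.26 for the first hairpin and 0.99, 1.44 and 1.20 for the second. The antisense gene D030025P21Rik overlaps 764 of the 8184 exonic bases of Ltbp2 (9.34%) and went from 1.27 CPM in control to 2.53 and 2.72 CPM. The strand setting of the counting is not given in the sources used here, so reads of the overlapping stretch cannot be told apart.

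Ltbp1 (chromosome 17, 75005568 to 75392512, plus strand) binds latent TGF-beta and anchors it to the matrix. Its lowest, median and highest values were 124, 145 and 166 CPM in control, 197, 211 and 237 CPM with shRNF185.1, and 178, 198 and 208 CPM with shRNF185.3. All hairpin libraries lay above the controls. Ltbp1 rose by 0.53 and 0.41 on the log2 scale (SE 0.07 each, adjusted p = 1.03e-05 and 0.000149). Ltbp4, which also guides elastic fibre assembly, had 64.2, 72.6 and 85.7 CPM in control, 47.7, 55.7 and 60.0 CPM with shRNF185.1, and 59.7, 67.3 and 70.7 CPM with shRNF185.3. Only the shRNF185.1 libraries lay below the controls without overlap. Ltbp4 fell by 0.43 with shRNF185.1 (SE 0.07, adjusted p = 0.000215) and had -0.17 with shRNF185.3 (adjusted p = 0.0951). The difference between the hairpins, 0.26 (adjusted p = 0.0214), was lost with the block (0.0585), without batch 1 (0.206) and without batch 3 (0.0753). Ltbp3, the most abundant of the 4 per kilobase (61.4 CPM per kb in control), had log2 fold changes of 0.12 and 0.06 that were not called.

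**Figure D3:**
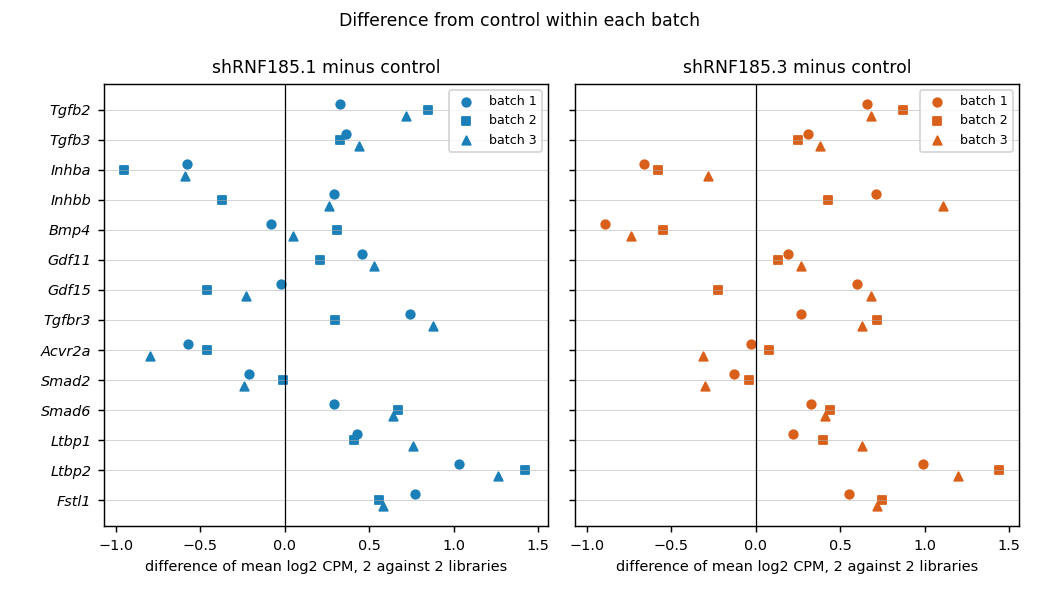
Log2 difference from control (x axis) within each of the 3 batches (point shapes) for the 14 members described by library (y axis). Separate panels show shRNF185.1 and shRNF185.3, with 2 libraries per group and batch. Every point of the 8 members higher with both hairpins lies right of 0, with Ltbp2 at 0.99 to 1.44. Every point of Inhba and Smad2 lies left of it, Smad2 in batch 2 at only -0.01 and -0.04.

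Of the 5 secreted antagonists and follistatin-like proteins, 4 were tested and 1, Fstl1, rose with both hairpins, as did 8.99% of all genes. Fstl1 (chromosome 16, 37776873 to 37836514, plus strand) encodes a secreted glycoprotein that can bind BMP ligands, and at 110 CPM per kb of exon in control it was the most abundant member. Its lowest, median and highest values were 517, 540 and 570 CPM in control, 727, 841 and 965 CPM with shRNF185.1, and 750, 871 and 934 CPM with shRNF185.3. Every hairpin library was above every control. Fstl1 rose by 0.64 and 0.67 on the log2 scale (SE 0.07 each, adjusted p = 7.60e-07 and 4.39e-07). The activin antagonists Fst and Fstl3 and the BMP antagonist Grem1 were not called. In that order, their log2 differences from control were 0.37, 0.30 and 0.26 for shRNF185.1, and -0.22, 0.33 and 0.23 for shRNF185.3. Nog, which encodes the BMP antagonist noggin, had a count of 0 in all 18 libraries.

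Among the 5 repressors and ligases, Ski was the one member called in opposite directions, a pattern of 0.496% of all genes. Ski, a corepressor that binds Smads, had 87.4, 96.6 and 102 CPM in control, 105, 108 and 112 CPM with shRNF185.1, and 82.3, 88.6 and 89.7 CPM with shRNF185.3, as lowest, median and highest. The hairpin groups did not overlap each other, and shRNF185.3 overlapped the control range. Against control the log2 difference was 0.18 in the shRNF185.1 group and -0.12 in the shRNF185.3 group (SE 0.04 each, adjusted p = 0.00211 and 0.0264). The first was lost without batch 2 (0.0574), and the second in 7 of 14 alternatives, including the block (0.0577), without batch 1 (0.388) and without batch 2 (0.0640). The difference between the hairpins was -0.30 (SE 0.04, adjusted p = 3.35e-05). Its paralog Skil, also a Smad corepressor, fell with shRNF185.1 (-0.37, SE 0.07, adjusted p = 0.000938) and had -0.13 with shRNF185.3 (adjusted p = 0.194). The Skil difference between the hairpins, 0.23 (adjusted p = 0.0388), was lost without batch 1 (0.0704), batch 2 (0.142) or batch 3 (0.292). The Smurf1 and Smurf2 ubiquitin ligases and the corepressor Tgif1 were not called. Differences from control on the log2 scale were 0.02, 0.04 and -0.22 for shRNF185.1, and 0.06, -0.06 and -0.14 for shRNF185.3. With the block, Tgif1 was called lower with shRNF185.1 (-0.23, adjusted p = 0.0346).

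The Id genes encode inhibitors of basic helix-loop-helix factors and are direct targets of BMP Smads. Id1 and Id2 were called with neither hairpin, with log2 fold changes of -0.12 and -0.21 for shRNF185.1 and -0.10 and -0.24 for shRNF185.3. Id3 had 133, 147 and 180 CPM in control, 158, 174 and 191 CPM with shRNF185.1, and 153, 184 and 219 CPM with shRNF185.3. The ranges overlapped. It rose with shRNF185.3 (0.31, SE 0.09, adjusted p = 0.0119), which was lost without batch 1 (0.177), and had 0.20 with shRNF185.1 (adjusted p = 0.0938, and 0.0447 with the block). Per kilobase, Id1 (103 CPM per kb) and Id3 (84.2 CPM per kb) were the next most abundant members in control after Fstl1. At the other end of the tested members were Bmpr1b (0.348 CPM per kb), Inhbb (0.362 CPM per kb), Acvr2b (0.373 CPM per kb) and Gdf15 (0.414 CPM per kb).

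**Figure D4:**
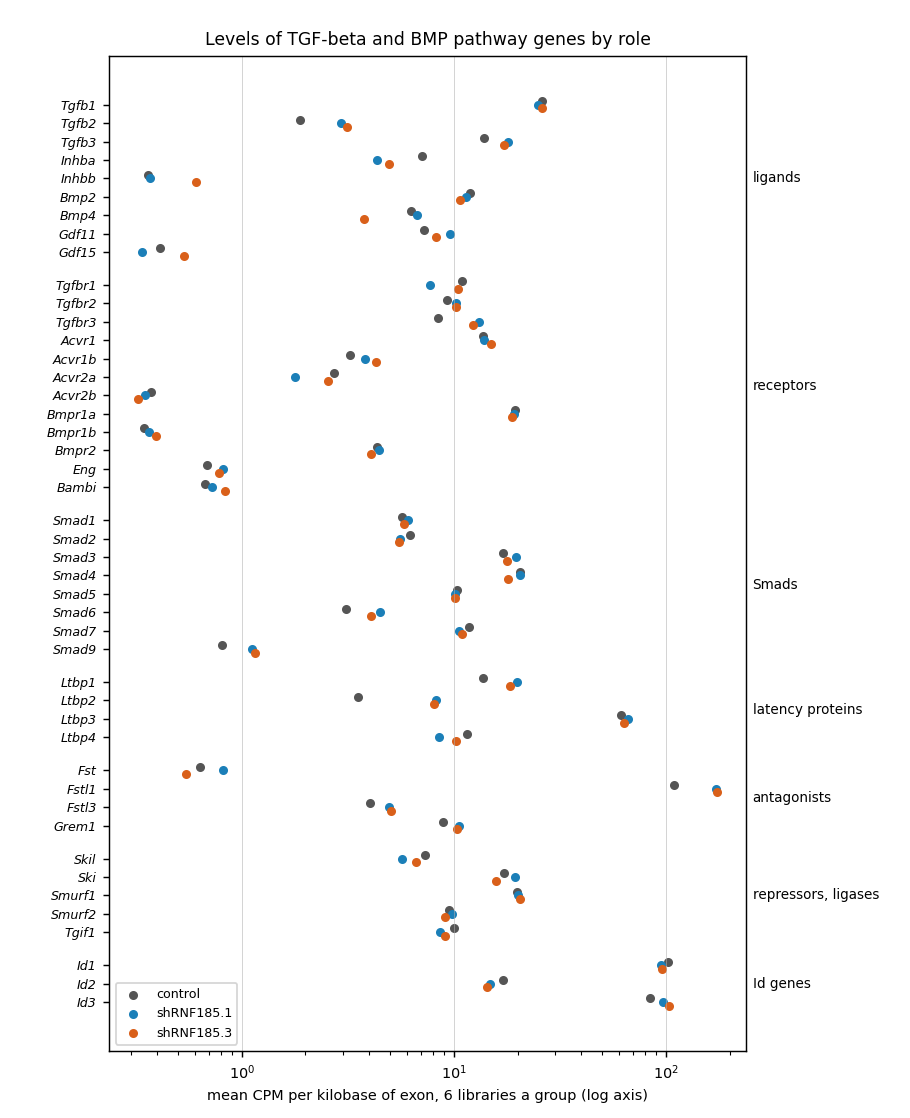
Mean level of the members in CPM per kilobase of exon (log axis) in control, shRNF185.1 and shRNF185.3, grouped by role. Fstl1, Id1, Id3 and Ltbp3 stand at the high end in control, from 110 down to 61.4, and Bmpr1b, Inhbb, Acvr2b and Gdf15 at the low end.

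Ranges that did not overlap control were found in 10 of 45 members with each hairpin (22.2%, against 12.8% of all genes for shRNF185.1 and 13.3% for shRNF185.3), 8 above and 2 below in each case. Between the hairpins 8.25% of all genes had such ranges, among them 6 members: Bmp4, Gdf11, Smad4 and Ski below, and Tgfbr1 and Acvr2a above in shRNF185.3. Between the hairpins, 10 of 45 members were called (22.2%, against 14.7% of all genes, 7.72% higher and 6.94% lower): 6 were higher with shRNF185.3 (Inhbb, Gdf15, Tgfbr1, Acvr2a, Ltbp4 and Skil) and 4 lower (Bmp4, Gdf11, Smad4 and Ski). The median log2 difference between the hairpins was 0.00 over the members and -0.00 over all genes.

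Beyond the members, 113 other pathway genes were listed by role, and 79 were tested. With shRNF185.1, 19 rose and 16 fell, and with shRNF185.3, 25 rose and 9 fell. These are 44.3% and 43.0% of those tested, against 28.9% and 27.3% of all genes. With both hairpins 12 rose and 4 fell (20.3%, against 16.1% of all genes). In the list of TGF-beta response genes, 19 of 21 were tested: 8 rose and 2 fell with shRNF185.1 (52.6% called), and 11 rose and 0 fell with shRNF185.3 (57.9% called). This list holds matrix genes that the title of the series and earlier results singled out, so its direction is no independent evidence. In the list of BMP response genes, 9 of 12 were tested: 2 rose and 4 fell with shRNF185.1 (66.7% called), and 1 rose and 2 fell with shRNF185.3 (33.3% called). Of 23 intracellular regulators, 22 were tested: 2 rose and 3 fell with shRNF185.1 (22.7% called), and 4 rose and 6 fell with shRNF185.3 (45.5% called).

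Of the 19 tested TGF-beta response genes, 6 rose with both hairpins (31.6%, against 8.99% of all genes). Others did not follow: Ccn2 was called with neither (0.07 and -0.30), Fn1 rose only with shRNF185.3 (-0.01 and 0.41), and Col1a2 fell with shRNF185.1 and rose with shRNF185.3 (-0.56 and 0.55). Tgfbi, which encodes a secreted adhesion protein, had means of 52.2 ± 8.69, 109 ± 26.4 and 136 ± 22.6 CPM in control, shRNF185.1 and shRNF185.3 (SD, n = 6 each), with log2 fold changes of 1.06 and 1.38 (adjusted p = 3.06e-05 and 1.70e-06). Col3a1, the type III collagen gene named in the title, had 545 ± 130, 1180 ± 318 and 1650 ± 309 CPM, with 1.11 and 1.60 (adjusted p = 0.000117 and 2.48e-06). Col1a1, a chain of type I collagen, had log2 fold changes of 1.29 and 2.19. The matricellular gene Postn had 1.20 and 0.57, higher with shRNF185.1 than with shRNF185.3 (difference -0.63, adjusted p = 0.00140). Snai2, which encodes a repressor of epithelial genes, had means of 9.03 ± 0.862, 16.6 ± 1.31 and 21.1 ± 2.84 CPM, with 0.88 and 1.23 (adjusted p = 7.80e-07 and 1.81e-08). For Tgfbi, Col3a1, Col1a1 and Snai2 all hairpin libraries lay above the controls.

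In the list of latent TGF-beta activation genes, 12 of 12 were tested: 3 rose and 4 fell with shRNF185.1 (58.3% called, against 28.9% of all genes), and 6 rose and 0 fell with shRNF185.3 (against 27.3% of all genes). Lrrc32, which encodes GARP, a cell-surface anchor of latent TGF-beta, had means of 8.24 ± 2.37, 21.4 ± 5.33 and 24.5 ± 4.89 CPM, with log2 fold changes of 1.37 and 1.58 (adjusted p = 2.28e-05 and 5.15e-06) and no overlap with control. The proteases Adamts1 (0.95 and 0.80) and Mmp14 (0.16 and 0.30) also rose with both. Among the receptors and antagonists, Rgma, a BMP co-receptor, had 0.77 and 0.81, and Nbl1, a secreted BMP antagonist, had 0.33 and 0.60, all called.

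Of the 79 tested genes outside the members, 4 fell with both hairpins (5.06%, against 7.13% of all genes). Of the 9 tested BMP response genes, 1 rose with both (11.1%, against 8.99% of all genes). Pmepa1, a TGF-beta target that restrains Smad2 and Smad3, had means of 153 ± 24.5, 105 ± 17.6 and 113 ± 11.2 CPM, with log2 fold changes of -0.54 and -0.43 (adjusted p = 0.00109 and 0.00750), and its ranges overlapped. Trim33, a ubiquitin ligase that acts on Smad4, had -0.45 and -0.20. Id4, the remaining Id gene, had 9.34 ± 1.21, 3.61 ± 0.668 and 3.67 ± 0.446 CPM, with -1.37 and -1.35 (adjusted p = 1.21e-07 and 1.76e-07), and every hairpin library lay below the controls. Hes1, a helix-loop-helix repressor listed with the BMP response genes and best known as a Notch target, had -0.45 and -0.79. Tbx3, a T-box factor of the same list, rose by 0.12 and 0.37.

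**Figure D5:**
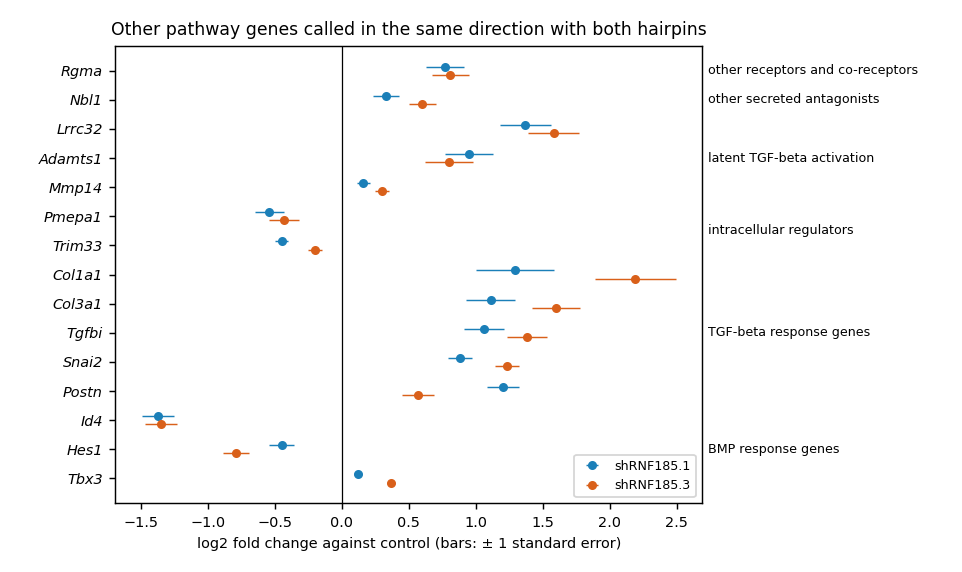
Log2 fold change against control (x axis, bars of 1 standard error) of the pathway genes outside the members that were called in the same direction with both hairpins and named by rule, for shRNF185.1 and shRNF185.3. Col1a1, Col3a1, Lrrc32 and Tgfbi lie to the right, and Id4 lies farthest to the left at -1.37 and -1.35.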

How the data were processed

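RNA of 18 MPC3 libraries was selected for polyadenylated RNA and sequenced as single-end reads from a directional kit, per the labels' protocols. The submitters' processing notes name cutadapt 2.3, STAR 2.7.0d, RSEM 1.3.1 and mm10. The authors deposited estimated counts for 47643 genes, which they name after ComBat-Seq, a method that adjusts count data for batch. Whether that adjustment was told the groups, and the strand setting of the counting, are not given in the sources used here. The second table the authors deposited is a scaled signal for 15386 genes: it equals the counts over an effective library size (TMM), as CPM, within a relative difference of 1.3e-11.

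Of the deposited estimated counts, 0.466% were not whole, and all were rounded. Genes were kept by filterByExpr (minimum count 10), scaled by TMM and tested in edgeR 4.0.16 (R 4.3.3) with the quasi-likelihood F test, one mean per group and no covariate. P-values were adjusted by Benjamini-Hochberg over 14309 genes, and the standard error is the log2 fold change over the square root of F. Per-library CPM come from these counts and TMM sizes. Symbols and GRCm38 positions are those of GENCODE M21, and promoters those of RefSeq GRCm38.p6. Within each group no pair of libraries was alike within sampling noise (at least 7.64 chi-square units per gene in 45 pairs).

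The members and lists were chosen with earlier results of these data known. Members called with both hairpins in the same direction, or between the hairpins with a log2 difference of at least 0.5, are described by library. From each other list, at most 5 genes called with both hairpins in the same direction are named, by the smaller of both changes. Tgfbr1, Smad4, Ltbp4, Ski and Id3 are also given by library, a choice made after their values were seen. The labels place equal replicate numbers in the same batch. Deviations of equal-numbered libraries of different groups correlated at -0.0144 on average (18 pairs, -0.628 to 0.705, across 9671 genes). The average was -0.434 for unequal numbers within a batch and 0.111 across batches. Equal numbers were thus more alike than their batch partners but less alike than libraries of other batches, which does not establish a pairing. A fit with the replicate number as a block was run as an alternative only. Further alternatives were other scalings, filters, DESeq2 1.42.0, limma 3.58.1, a batch term, a GC and length offset, each batch left out, and summed pairs.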

Additional observations from a re-analysis of the deposited data

Results flagged for a closer look

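In 8 of 135 groups of 6 libraries, 1 library of a member stood apart from the other 5 by Dixon's criterion, and chance alone gives about 6.75. On the log2 CPM scale these were Gdf11 in control replicate 3 (5.15, the next at 4.88), Acvr2a in control replicate 5 (4.28, the next at 3.93) and Smurf1 in control replicate 4 (6.83, the next at 6.96). With shRNF185.1 they were Bmpr1b in replicate 3 (1.39, the next at 1.17), Bambi in replicate 5 (2.33, the next at 1.94), Smad6 in replicate 1 (3.53, the next at 3.88) and Ltbp4 in replicate 4 (5.57, the next at 5.79). With shRNF185.3 it was Ski in replicate 1 (6.37, the next at 6.47).

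For 10 members the effects of the hairpins differed in the direct test of shRNF185.3 against shRNF185.1 (edgeR, adjusted p under 0.05). The log2 difference was positive for Inhbb (0.71), Gdf15 (0.64), Acvr2a (0.53), Tgfbr1 (0.45), Ltbp4 (0.26) and Skil (0.23). It was negative for Bmp4 (-0.82), Ski (-0.30), Gdf11 (-0.21) and Smad4 (-0.18).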

How the results depend on the processing

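Of 45 called differences of members, 26 were called in every one of the 14 alternatives that could be fitted, and 0 reversed. Members called with both hairpins numbered 8 to 12 over the alternatives, against 10. The main fit had no batch term, so its p-values make no allowance for the batch adjustment of the deposited counts. With a batch term, 15, 14 and 8 members were called for shRNF185.1, shRNF185.3 and between the hairpins, against 18, 17 and 10. Over all genes the shares were 24.9%, 22.8% and 11.4%, against 28.9%, 27.3% and 14.7%. Without batch 1, members called numbered 11 for shRNF185.3 against control (17 with all batches) and 4 between the hairpins (10 with all batches), and without batch 3 the latter were 5. Calls over all genes also dropped: without batch 1 from 27.3% to 14.9% and from 14.7% to 5.27%, and without batch 3 from 14.7% to 12.5% between the hairpins. Among the other pathway genes, leaving out batch 1 gave 23 calls for shRNF185.1 (from 35), where the share over all genes fell from 28.9% to 15.5%. It gave 21 calls for shRNF185.3 (from 34) and 16 between the hairpins (from 29). Leaving out batch 2 gave 12 calls between the hairpins, where the share over all genes was 8.42%. With the replicate block, 17, 15 and 9 members were called for shRNF185.1, shRNF185.3 and between the hairpins, and 11 with both. The block fit ended 6 calls (Tgfbr2, Smad3 and Smad7 with shRNF185.1, Smad9 and Ski with shRNF185.3, Ltbp4 between the hairpins). It added 2 (Tgif1 and Id3 with shRNF185.1). Gdf15 gave no value at a mean count of at least 50. Depth limits Bmp6 and Acvrl1, which were too scarce to test.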

Other observations

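Besides Ski, 3 of the 79 tested pathway genes outside the members were called in opposite directions with the hairpins, a pattern of 0.496% of all genes. These 3 were singled out after their values were seen. Itgav, the integrin alpha V subunit, which takes part in releasing latent TGF-beta, had means of 200 ± 22.3, 159 ± 9.40 and 241 ± 11.0 CPM in control, shRNF185.1 and shRNF185.3 (SD, n = 6 each), with log2 fold changes of -0.33 and 0.27 (edgeR adjusted p = 0.000948 and 0.00424). Fbn2, a microfibril gene, was scarce, with 5 to 81 counts per library. Its means were 0.874 ± 0.221, 0.395 ± 0.164 and 1.76 ± 0.763 CPM, with -1.12 and 1.02 (adjusted p = 0.0135 and 0.0107). Col1a2, a chain of type I collagen, had 374 ± 28.8, 254 ± 62.4 and 545 ± 76.5 CPM, with -0.56 and 0.55 (adjusted p = 0.00306 and 0.00379), whereas the partner chain gene Col1a1 rose with both.

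Dcn, which encodes decorin, a proteoglycan that binds TGF-beta, had 24.9 ± 7.75, 5.76 ± 2.25 and 17.6 ± 6.08 CPM in those groups. It fell by 2.11 on the log2 scale with shRNF185.1 (adjusted p = 2.03e-05) and was not called with shRNF185.3 (-0.50, adjusted p = 0.182), and the difference between the hairpins was 1.62 (adjusted p = 0.000672). Emilin1, which encodes an inhibitor of TGF-beta precursor processing, had 60.9 ± 10.5, 64.5 ± 8.02 and 110 ± 11.6 CPM. It rose with shRNF185.3 (0.85, adjusted p = 8.58e-06), had 0.08 with shRNF185.1 (adjusted p = 0.608), and differed between the hairpins by 0.77 (adjusted p = 5.66e-05).

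Bmp2 split by replicate number in every group, a pattern noticed after its values were seen. Replicates 1, 3 and 5 lay at 45.9 to 59.1 CPM and replicates 2, 4 and 6 at 24.8 to 38.4 CPM over the 3 groups, with no overlap. The labels do not say what separates these numbers within a batch.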
